A study of Arabidopsis thaliana with 4 samples.

Results

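The heat shock module of Arabidopsis thaliana was followed across 4 RNA-seq libraries of whole seedlings. It was defined by a list of 42 loci: the heat shock factor (HSF) family, the small heat shock proteins (small HSPs), members of the HSP70, HSP90 and HSP101 families, and the heat response genes MBF1C, HSA32, GOLS1 and BIP3. Of these, 41 were analysed, and 40 reached 1 RPKM in at least 1 library and were kept, of 24288 loci in all. RPKM is the number of reads scaled by gene length and library total. HSFA9 was not analysed here, and HSP21, at 0.0599 RPKM in m90, 0.123 in s215, 0.0596 in atprmt5 and 0.123 in wild type, was left out as below 1 RPKM everywhere. Of the 40 genes kept, 24 reached 1 RPKM in all 4 libraries, 8 in 3, 3 in 2 and 5 in a single library; the last 5 (HSFA7B, BIP3, HSP17.6II, ATHSP22.0 and HSP23.6-MITO) entered only through the library where they were high, so that a difference was built into their selection.

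The libraries came from the lines m90 and s215, from the atprmt5 mutant, which is altered in the protein arginine methyltransferase gene PRMT5, and from wild type, all of the Columbia ecotype. All seedlings had grown for 12 days at 23 °C on Murashige and Skoog medium with 3% sucrose, under 16 h of light and 8 h of darkness, and no heat treatment is named. The series concerns suppressors of atprmt5, but the labels do not give the atprmt5 allele, the gene altered in m90 or s215, or whether these lines also carry atprmt5. Each genotype had 1 library, so that every difference is one between libraries, has no replicate check and carries no p-value.

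HSFs are transcription factors that bind the heat shock element, an alternation of GAA and TTC blocks in the promoters of chaperone genes. In Arabidopsis the class A1 factors start the response to heat, other class A factors such as HSFA2 amplify and prolong it, and class B factors lack the activation domain of class A and mostly act as repressors. The chaperones they control hold unfolded proteins (small HSPs), refold them (HSP70 and HSP90) or pull them out of aggregates (HSP101).

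Scaling totals were between 17350612 and 17901204 reads per library. PRMT5 itself (AT4G31120) was at 0.974 RPKM in m90, 1.70 in s215, 1.25 in atprmt5 and 5.94 in wild type, a ratio of atprmt5 to wild type of 0.210. It was low in m90 and s215 as well as in atprmt5. As markers of the organs in a seedling, 5 shoot genes summed to between 16383 and 28787 RPKM over the 4 libraries. The 4 root markers (PYK10, CASP1, EXPA7 and IRT1) summed to 1386 RPKM in m90, 3.69 in s215, 1511 in atprmt5 and 1571 in wild type, and CASP1 and EXPA7 were at 0 in s215. The labels call s215 whole seedlings, yet its root transcripts were close to missing. The 8 seed markers, storage proteins among them, summed to 2.97 RPKM in m90, 0.481 in s215, 50.2 in atprmt5 and 195 in wild type. The part of these organ differences in the results below was not tested. In bulk RNA, fewer cells of a kind and less RNA per cell cannot be told apart.

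**Figure D1:**
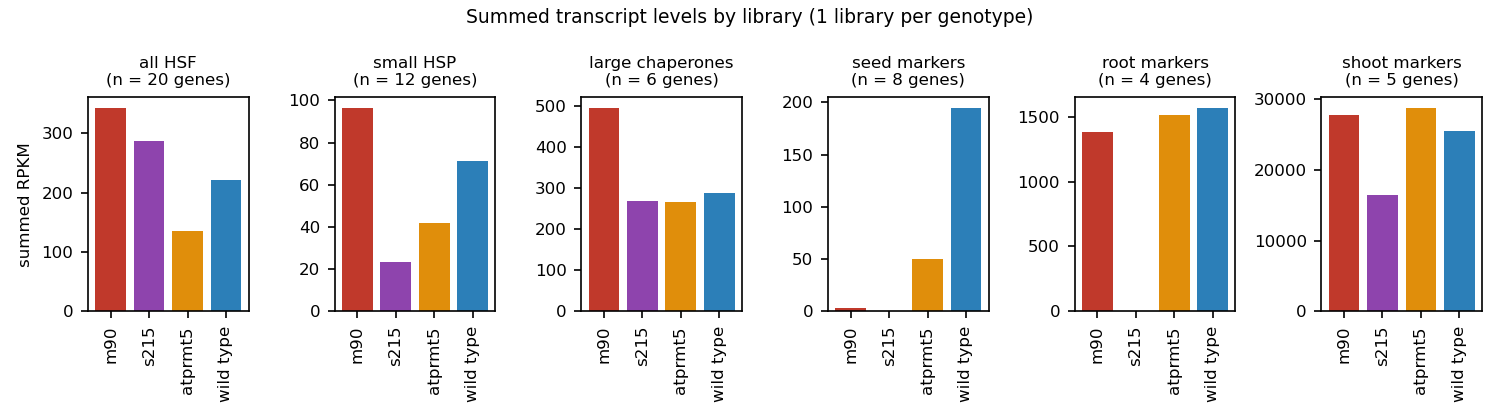
Summed RPKM (linear axis from 0) of the HSF genes, small HSPs, large chaperones and the seed, root and shoot markers, with 1 bar per library. The HSF sum was 343 RPKM in m90 and 135 in atprmt5, the small HSP sum was lowest in s215 at 23.3 RPKM, and the root marker sum in s215 was 3.69 RPKM.

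Summed over genes, HSF transcripts stood at 343 RPKM in m90, 287 in s215, 135 in atprmt5 and 220.3 in wild type. Small HSPs, HSP21 included, summed to 96.6 RPKM in m90, 23.3 in s215, 41.7 in atprmt5 and 71.2 in wild type. The 6 large chaperones summed to 496 RPKM in m90, 269 in s215, 266 in atprmt5 and 287 in wild type. Of these sums, the gene HSP81-2 alone made up 284 RPKM in m90, 174 in s215, 181 in atprmt5 and 127 in wild type. All 3 sums were thus highest in m90, and s215 combined the second highest HSF sum with the lowest small HSP sum. Gene by gene, 20 of the 40 members had their highest level in m90, a library that held the highest level of 22.6% of the 19867 loci with at least 1 RPKM somewhere. The highest level was in s215 for 11 members, in atprmt5 for 1 and in wild type for 8, where it was so for 36.0%, 19.1% and 22.2% of those loci.

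In m90 against atprmt5, most members lay above equality. Of the 40 members, 16 were at least 2-fold higher in m90 on the scale log2(RPKM + 1), which understates the change of low genes, and 1 was lower. Among all 19867 loci 3.58% were higher and 2.37% lower by that measure. The median log2 ratio was 0.72 for the members and -0.04 for all loci, and 32 members lay above 0. HSFA7B and HSP17.6II, among the 16, entered through m90 alone. Among the 24 members with at least 1 RPKM in all libraries, which owe their place to no single library, 10 were higher and 0 lower. With a pseudocount of 5 in place of 1, 10 of the 40 were higher and 0 lower. Here and below, shares of all loci are for a pseudocount of 1 over the 19867 loci. None is given for other pseudocounts or for subsets by level.

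The factor HSFA2 (AT2G26150, chromosome 2, 11135624 to 11137792 in TAIR10.1, plus strand, up to 4 exons) had the highest log2 ratio of the 40 members in m90 against atprmt5. It was at 26.5 RPKM in m90, 1.29 in s215, 0.629 in atprmt5 and 1.18 in wild type. The m90 level stood apart, and the other 3 libraries lay close together near the 1 RPKM limit. HSFA2 was 42.1-fold higher in m90 than in atprmt5 (25.7 to 74.1; brackets after a ratio hold its 95% exact counting interval, which is approximate and covers counting error only) and 22.5-fold higher in m90 than in wild type (15.5 to 33.9). The ratio of s215 to wild type was 1.10 (0.645 to 1.89).

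Its promoter is shown with those of HSFA7A and HSFA7B, the other class A factors whose window held a complete heat shock element, since all 3 genes were higher in m90 than in atprmt5. Capitals mark the element of 3 blocks (GAANNTTCNNGAA, or TTCNNGAANNTTC on the other strand). Each sequence is the 250 bases before the annotated start, 5′ to 3′ on the gene's strand, from the RefSeq genome and annotation of TAIR10.1.
HSFA2, chr2:11135374-11135623, plus strand: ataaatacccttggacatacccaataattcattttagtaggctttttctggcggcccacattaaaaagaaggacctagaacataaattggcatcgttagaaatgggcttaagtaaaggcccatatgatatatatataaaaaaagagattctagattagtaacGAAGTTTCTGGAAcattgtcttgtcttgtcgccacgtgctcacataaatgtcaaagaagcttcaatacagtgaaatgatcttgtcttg
HSFA7A, chr3:19264891-19265140, plus strand: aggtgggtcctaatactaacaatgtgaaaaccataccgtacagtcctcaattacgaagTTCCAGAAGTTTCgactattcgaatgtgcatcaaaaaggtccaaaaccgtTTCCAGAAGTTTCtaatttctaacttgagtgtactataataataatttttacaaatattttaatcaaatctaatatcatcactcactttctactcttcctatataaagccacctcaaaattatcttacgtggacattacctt
HSFA7B, chr3:23398986-23399235, plus strand: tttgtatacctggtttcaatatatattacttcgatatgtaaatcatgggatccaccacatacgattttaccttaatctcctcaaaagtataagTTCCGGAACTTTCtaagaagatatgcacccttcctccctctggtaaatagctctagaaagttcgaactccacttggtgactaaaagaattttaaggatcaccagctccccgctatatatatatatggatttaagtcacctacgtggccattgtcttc
The element starts 88 bases before the start of HSFA2, 192 and 142 bases before that of HSFA7A, and 157 bases before that of HSFA7B.

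Of the 40 members, 6 held the 3-block element in this window (15.0%), against 106 of 27443 protein-coding genes (0.386%). The other 3 were HSP17.4, AT1G53540 and GOLS1. A shorter element of 2 blocks (GAANNTTC or TTCNNGAA, which every 3-block element contains) was in 13 members (32.5%) and in 16.1% of protein-coding genes. Of the 16 members higher in m90 than in atprmt5, 3 held the 3-block element, as did 3 of the 23 members that were neither higher nor lower. A match is a run of letters and not a binding site that was tested, and no match says only that these letters are not in this window.

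HSFA7A was at 29.5 RPKM in m90, 22.7 in s215, 4.84 in atprmt5 and 7.65 in wild type. Here m90 and s215 were both high, with ratios to atprmt5 of 6.09 (4.73 to 7.94) and 4.69 (3.61 to 6.15). HSFA7B was at 1.77 RPKM in m90 and at 0 in the other 3 libraries. With the 0 of atprmt5 set to 3 reads, HSFA7B was 8.96-fold higher in m90 than in atprmt5. The lower limit of the counting interval of that ratio was 6.87. HSFA6B, a factor with a role in abscisic acid responses, was at 3.40 RPKM in m90, 0 in s215, 0.327 in atprmt5 and 2.51 in wild type. Its levels in m90 and wild type were close, and those in s215 and atprmt5 were low. HSFA4A, linked to oxidative stress, was at 32.3 RPKM in m90, 39.3 in s215, 7.18 in atprmt5 and 17.2 in wild type, with a ratio of m90 to atprmt5 of 4.50 (3.91 to 5.18).

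HSFA6A was the 1 member lower in m90 than in atprmt5. It was at 8.24 RPKM in m90, 0.813 in s215, 20.7 in atprmt5 and 25.8 in wild type. The ratio of m90 to atprmt5 was 0.398 (0.322 to 0.492) and that of m90 to wild type 0.320 (0.260 to 0.393). It thus ran against its near relative HSFA6B, which was 10.4-fold higher in m90 than in atprmt5 (5.24 to 23.4).

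Among the class B factors, HSFB2A was at 74.2 RPKM in m90, 19.2 in s215, 8.73 in atprmt5 and 27.1 in wild type. HSFB2B was at 27.5 RPKM in m90, 3.50 in s215, 2.83 in atprmt5 and 4.63 in wild type. Both were highest in m90, HSFB2A 8.49-fold (7.41 to 9.78) and HSFB2B 9.70-fold (7.89 to 12.0) above atprmt5. HSFB1 was at 29.1 RPKM in m90, 54.6 in s215, 13.6 in atprmt5 and 18.3 in wild type. HSFB3 ranged from 2.58 to 3.95 RPKM over the libraries and passed 2-fold in none of the 5 comparisons. The only class C factor, HSFC1, was at 40.6 RPKM in m90, 5.11 in s215, 13.9 in atprmt5 and 31.9 in wild type.

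The class A1 factors did not share this pattern of levels. HSFA1A was at 2.79 RPKM in m90, 5.96 in s215, 4.42 in atprmt5 and 4.68 in wild type. HSFA1B was at 10.4 RPKM in m90, 20.1 in s215, 13.0 in atprmt5 and 17.0 in wild type, and HSFA1D lay between 3.72 RPKM in m90 and 5.96 in s215. All 3 were lowest in m90 and highest in s215, and none reached 2-fold in the 5 comparisons made, which do not set m90 against s215. For HSFA1A the ratio of m90 to atprmt5 was 0.630 (0.469 to 0.833). HSFA1E was at 1.16 RPKM in m90, 4.11 in s215, 1.08 in atprmt5 and 0.649 in wild type, so that of the class A1 factors it alone passed 2-fold, in s215 against both atprmt5 and wild type. HSFA5 and HSFA4C lay between 9.90 and 16.3 RPKM throughout, and HSFA3 between 1.10 and 3.36. These 3 factors passed 2-fold on the log2(RPKM + 1) scale in none of the comparisons. The plain ratio of HSFA3 was past 2-fold, at 0.361 in s215 against wild type (0.221 to 0.572) and 2.05 in m90 against atprmt5 (1.40 to 3.09).

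**Figure D2:**
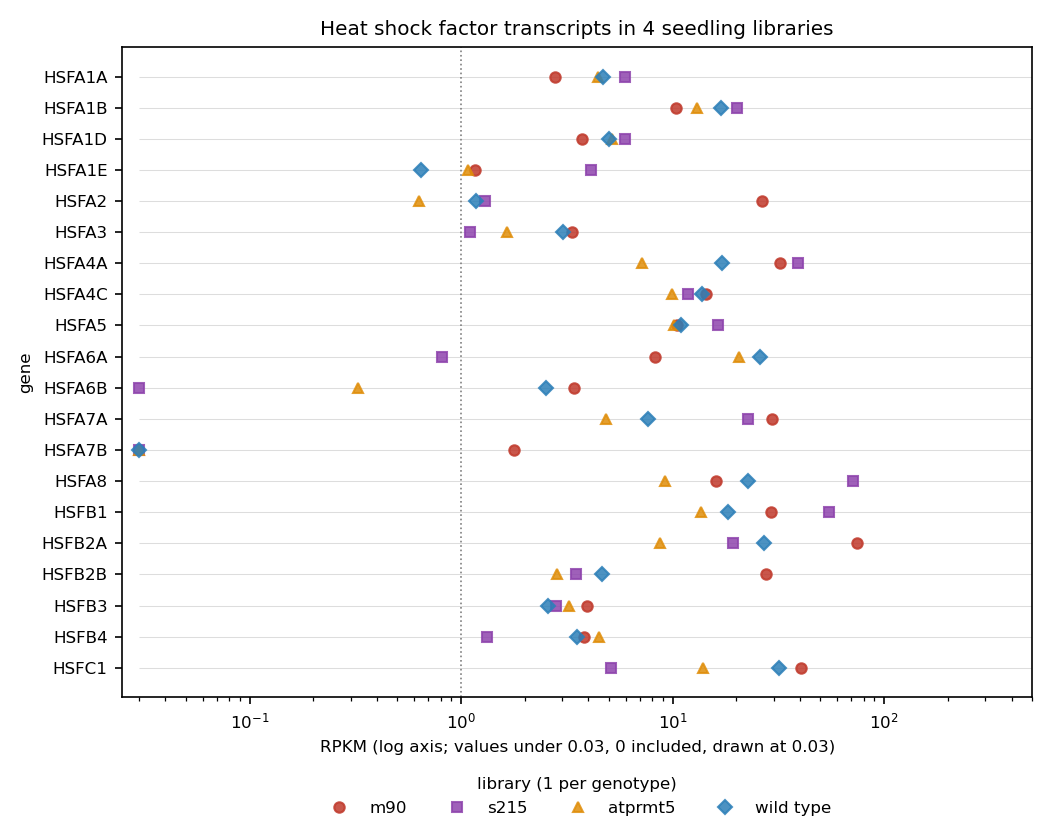
RPKM (log axis) of the 20 HSF genes kept, with 1 point per library and a dotted line at 1 RPKM. HSFA2, HSFB2A and HSFB2B have m90 far to the right of the other libraries, while HSFA8 and HSFB1 are highest in s215 at 71.3 and 54.6 RPKM.

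Among the chaperones, HSP101, the disaggregase that plants need for acquired heat tolerance (AT1G74310, minus strand of chromosome 1, 27936508 to 27940369), was at 20.8 RPKM in m90, 2.78 in s215, 3.38 in atprmt5 and 3.91 in wild type. As for HSFA2, m90 stood apart and the other 3 libraries were close, with ratios of 6.14 to atprmt5 (5.25 to 7.17) and 5.31 to wild type (4.58 to 6.16). The heat-induced HSP70 gene (AT3G12580) was at 118 RPKM in m90, 18.3 in s215, 40.8 in atprmt5 and 76.8 in wild type. HSP90.1, the heat-induced cytosolic HSP90, was at 69.9 RPKM in m90, 58.0 in s215, 34.9 in atprmt5 and 74.3 in wild type, and so was low in atprmt5 and near equal elsewhere. HSP81-2, a constitutive cytosolic HSP90, was at 284 RPKM in m90, 174 in s215, 181 in atprmt5 and 127 in wild type. Of the 100-base stretches of its transcript, 7.40% also occur in its neighbours HSP81-3 and Hsp81.4. Its level may therefore include reads of these genes, by an amount that was not measured. HSP70B was at 3.69 RPKM in m90, 6.54 in s215, 5.39 in atprmt5 and 5.57 in wild type, with no comparison past 2-fold.

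MBF1C, a transcriptional coactivator needed for basal heat tolerance, was at 75.0 RPKM in m90, 13.8 in s215, 9.39 in atprmt5 and 21.5 in wild type. It was 7.99-fold higher in m90 than in atprmt5 (6.63 to 9.71) and 3.48-fold higher in m90 than in wild type (3.05 to 3.99). HSA32, which prolongs acquired heat tolerance, was highest in wild type instead, at 1.63 RPKM in m90, 0.456 in s215, 3.04 in atprmt5 and 6.03 in wild type. HSA32 overlaps the neighbouring gene AT4G21323 on the same strand, and its reads may not all be its own. GOLS1, which makes galactinol for protective sugars, lay between 10.6 and 20.8 RPKM with no comparison past 2-fold.

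Of the 11 small HSP genes kept, 4 were at least 2-fold higher in m90 than in atprmt5 and 0 lower, where 3.58% and 2.37% of all loci were. HSP17.6II, among these 4, entered through m90 alone, so that a difference was built into its selection. AT1G07400, an HSP20-like chaperone locus, was at 18.6 RPKM in m90, 0.705 in s215, 2.40 in atprmt5 and 3.69 in wild type, 7.78-fold higher in m90 than in atprmt5 (5.46 to 11.4). AT5G51440, another such locus, was at 19.7 RPKM in m90, 1.90 in s215, 8.07 in atprmt5 and 7.57 in wild type. The neighbouring genes HSP17.6A and HSP17.6II were at 3.74 and 1.68 RPKM in m90, 0.456 and 0 in s215, 0.354 and 0.159 in atprmt5 and 2.83 and 0.985 in wild type. For this pair the low level lay in atprmt5 and s215, and m90 was near wild type.

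**Figure D3:**
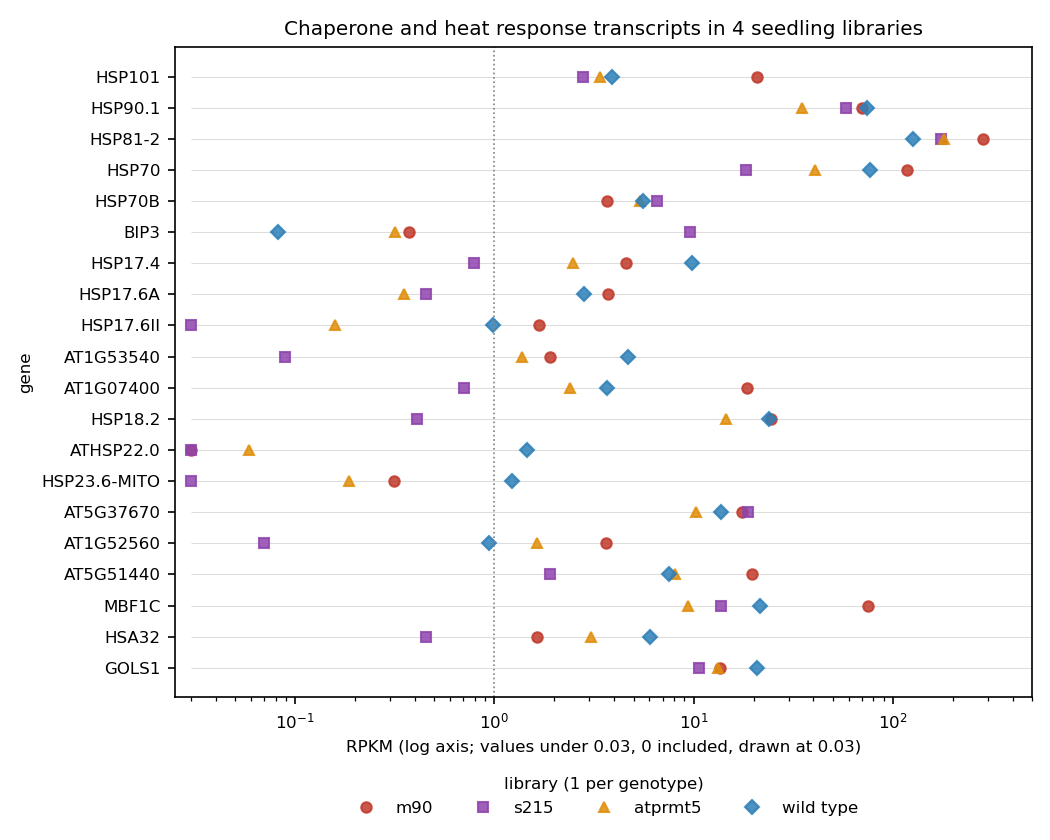
RPKM (log axis) of the 20 chaperone and other heat response genes kept, with 1 point per library and a dotted line at 1 RPKM. For most small HSPs the s215 point lies farthest to the left, and for HSP101 and MBF1C the m90 point lies far to the right, at 20.8 and 75.0 RPKM.

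Against wild type, m90 had 11 members at least 2-fold higher and 3 lower, where 2.61% of all loci were higher and 2.75% lower. The 3 lower became 6 with a pseudocount of 0.1 and 1 with a pseudocount of 5. The median log2 ratio was 0.33, against -0.04 for all loci. The 11 were HSFA2, HSFA7A, HSFA7B, HSFB2A, HSFB2B, HSP101, HSP81-2, AT1G07400, AT1G52560, AT5G51440 and MBF1C. Of these, HSFA7B entered through m90 alone, and 9 were also at least 2-fold higher in m90 than in atprmt5. AT1G52560, an HSP20-like chaperone locus, was at 3.65 RPKM in m90, 0.0700 in s215, 1.63 in atprmt5 and 0.943 in wild type. The 3 lower members were HSFA6A, HSA32 and ATHSP22.0. The small HSP gene ATHSP22.0 had 0 reads in m90 and s215, 0.0589 RPKM in atprmt5 and 1.46 in wild type. With the 0 of m90 set to 3 reads, it was 8.21-fold lower in m90 than in wild type. The upper limit of the counting interval of its ratio of m90 to wild type was 0.162. ATHSP22.0 entered through wild type alone, the library with the highest seed marker sum.

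In atprmt5 against wild type the module lay on the low side. Of 40 members, 0 were at least 2-fold higher and 11 lower, where 1.83% of all loci were higher and 3.36% lower. Of the 11, 6 were also at least 2-fold higher in m90 than in atprmt5. Both comparisons rest on the same single atprmt5 library, so they are not independent. The median log2 ratio was -0.51 for the members and -0.00 for all loci, and 31 members lay below 0. Among the 24 members at 1 RPKM or more in all libraries 6 were lower. The lowest log2 ratio of (RPKM + 1) was -1.64 (HSP17.4). The 11 lower members became 1 with a pseudocount of 5 and 6 among members averaging at least 5 RPKM.

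The 11 lower members were 5 factors (HSFA4A, HSFA6B, HSFA8, HSFB2A and HSFC1), 4 small HSPs (HSP17.4, HSP17.6A, AT1G53540 and ATHSP22.0), HSP90.1 and MBF1C. For the factors the ratio of atprmt5 to wild type ran from 0.130 for HSFA6B (0.0571 to 0.262) to 0.437 for HSFC1 (0.389 to 0.491). HSP17.4 was at 4.58 RPKM in m90, 0.795 in s215, 2.47 in atprmt5 and 9.79 in wild type, with a ratio of atprmt5 to wild type of 0.252 (0.165 to 0.375). AT1G53540 was at 1.91 RPKM in m90, 0.0888 in s215, 1.38 in atprmt5 and 4.70 in wild type. HSP90.1 was at 0.470 of wild type in atprmt5 (0.442 to 0.499).

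HSP17.4, AT1G53540, ATHSP22.0 and HSP23.6-MITO all had their highest level in wild type, as the seed marker sum did. So did HSFA6A, HSP90.1, HSA32 and GOLS1. The seed marker sum was at 2.97 RPKM in m90 against 50.2 in atprmt5. Between the same libraries HSP17.4 was at 4.58 RPKM against 2.47, and ATHSP22.0 at 0 against 0.0589. AT1G53540 and HSP23.6-MITO were also higher in m90 than in atprmt5, with counting intervals that include 1. HSP23.6-MITO, a mitochondrial small HSP, was at 0.312 RPKM in m90, 0 in s215, 0.186 in atprmt5 and 1.22 in wild type. Of the 7 seed markers above the minimum, 4 were lower in atprmt5 than in wild type and 7 were lower in m90 than in wild type. The part of seed transcripts in the levels of these small HSPs was not tested.

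**Figure D4:**
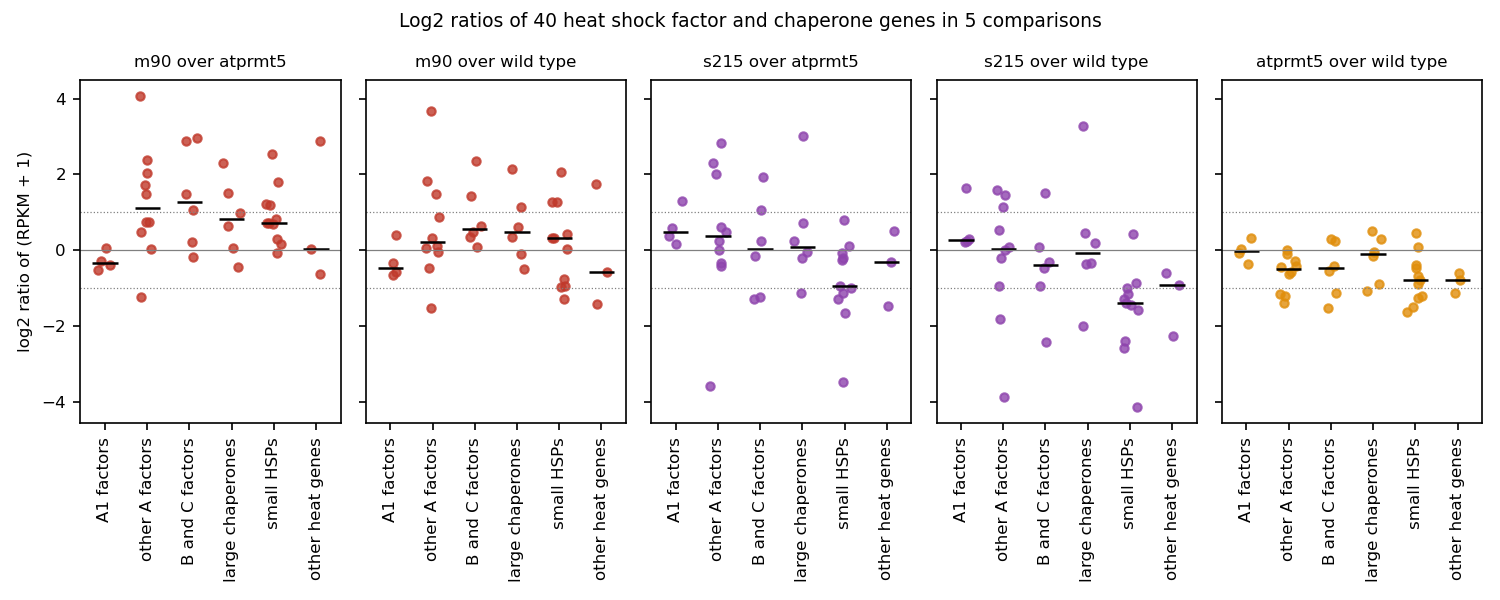
Log2 ratios of (RPKM + 1) of the 40 members by role, in 5 comparisons; each point is a gene, black bars are medians and dotted lines mark 2-fold. In m90 against atprmt5 the class A1 factors lie near or below 0. In that comparison 16 other members lie above the upper dotted line, as do 3.58% of all loci. In s215 against wild type 8 of 11 small HSPs lie below the lower dotted line, as do 23.9% of all loci. Among these 8, ATHSP22.0 and HSP23.6-MITO entered through wild type alone.

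The s215 library differed from the others across the whole transcriptome, and against atprmt5 the module's totals were near that background. Against atprmt5, 7 of 40 members were at least 2-fold higher and 9 lower (17.5% and 22.5%), where 12.7% of all loci were higher and 22.8% lower. Against wild type 6 were higher and 13 lower (15.0% and 32.5%), where 12.8% and 23.9% of loci were. The median log2 ratio in s215 against wild type was -0.43 for the members and -0.16 for all loci. With a pseudocount of 5 the lower members were 2 against atprmt5 and 6 against wild type. The reported shares of the whole list are close to the background against atprmt5. Against wild type the share lower is above it, a difference that was not tested. The values of single genes and roles are given as a description only.

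Counts for the factors and the small HSPs differed in s215; the difference between the lists was not tested. Of the 20 factors, 6 were higher and 3 lower than in atprmt5, and 5 were higher and 3 lower than in wild type. Of the 11 small HSPs, 0 were higher and 4 lower than in atprmt5, and 0 were higher and 8 lower than in wild type. Among these 8, ATHSP22.0 and HSP23.6-MITO entered through wild type alone, so that a difference was built into their selection. Among all loci 12.7% were higher and 22.8% lower than in atprmt5, and 12.8% were higher and 23.9% lower than in wild type. HSFA8 was at 16.1 RPKM in m90, 71.3 in s215, 9.21 in atprmt5 and 22.8 in wild type, 7.74-fold higher in s215 than in atprmt5 (6.74 to 8.90) and 3.12-fold higher in s215 than in wild type (2.84 to 3.44). HSFB1 was 4.02-fold higher in s215 than in atprmt5 (3.62 to 4.48) and 2.98-fold higher in s215 than in wild type (2.71 to 3.28). HSFA4A was 2.29-fold higher in s215 than in wild type (2.07 to 2.53).

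HSP18.2, a cytosolic small HSP, was at 24.6 RPKM in m90, 0.410 in s215, 14.6 in atprmt5 and 24.0 in wild type. Only s215 stood apart, with 5 reads behind its value, and its ratio to wild type was 0.0171 (0.00551 to 0.0404). HSP70 was also low in s215, at 0.238 of wild type (0.219 to 0.258). AT5G37670, an HSP20-like chaperone locus, was an exception among the small HSPs, at 17.6 RPKM in m90, 18.7 in s215, 10.3 in atprmt5 and 13.8 in wild type.

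Of the other factors low in s215, HSFA6A was at 0.0315 of wild type (0.0161 to 0.0557), HSFC1 at 0.160 (0.134 to 0.190) and HSFA6B at 0 reads. With that 0 set to 3 reads, HSFA6B was 22.4-fold lower in s215 than in wild type. The upper limit of the counting interval of its ratio of s215 to wild type was 0.0565. HSFB4, known as SCHIZORIZA for its role in the root stem cell niche, was at 3.80 RPKM in m90, 1.33 in s215, 4.49 in atprmt5 and 3.53 in wild type, a ratio of s215 to atprmt5 of 0.297 (0.188 to 0.457). Of the 5 shoot markers 4, and all 4 root markers, were lower in s215 than in atprmt5 and wild type, PYK10 at 3.65 RPKM in s215, against 1484 in atprmt5 and 1553 in wild type, and their part in these values was not tested.

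BIP3, an HSP70 of the endoplasmic reticulum and a marker of the unfolded protein response there (AT1G09080, minus strand of chromosome 1, 2929217 to 2931850), was at 0.372 RPKM in m90, 9.58 in s215, 0.317 in atprmt5 and 0.0817 in wild type. It was high in s215 only, 30.2-fold above atprmt5 (17.1 to 59.0), and it entered through that library alone. Its promoter is shown because it was the only one of the 40 with the ER stress element (CCAAT, 10 bases of any kind, CACG, on either strand), which was in 0.689% of protein-coding genes. Capitals mark both matches, here read on the opposite strand.
BIP3, chr1:2931851-2932100, minus strand: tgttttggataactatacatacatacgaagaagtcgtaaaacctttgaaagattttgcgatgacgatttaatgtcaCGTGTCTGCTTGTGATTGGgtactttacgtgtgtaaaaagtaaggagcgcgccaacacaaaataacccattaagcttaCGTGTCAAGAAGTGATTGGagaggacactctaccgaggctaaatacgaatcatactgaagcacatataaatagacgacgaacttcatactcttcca

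The constitutive relatives BIP1 and BIP2, which share 8.70% and 9.45% of their 100-base stretches with each other, are the other BiP genes. BIP1 was at 280.1 RPKM in m90, 425 in s215, 329 in atprmt5 and 214 in wild type, and neither passed 2-fold in any of the 5 comparisons. BZIP60, a transcription factor of the unfolded protein response, was at 174 RPKM in m90, 239.7 in s215, 57.0 in atprmt5 and 78.3 in wild type. Of 10 genes of that response, BZIP60 included, 2 were at least 2-fold higher in s215 than in atprmt5 and 0 lower, where 12.7% and 22.8% of all loci were, and 5 of the 10 lay below 0.

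Around the module, 48 of 49 further genes of protein folding and heat response reached 1 RPKM. In m90 against atprmt5 8 were at least 2-fold higher and 0 lower, where 3.58% and 2.37% of all loci were, and the median log2 ratio was 0.18, against -0.04 for all loci. In m90 against wild type 8 were higher and 0 lower, where 2.61% and 2.75% of all loci were, and the median was 0.30, against -0.04. Past 4-fold on the log2 scale in m90 against atprmt5 were DREB2A, which activates HSFA3 in heat and drought, and the HSP20-like loci AT1G54050 and AT1G59860. DREB2A was at 116 RPKM in m90, 10.1 in s215, 6.02 in atprmt5 and 37.4 in wild type. HSFA3 itself was at 3.36 RPKM in m90 and 1.64 in atprmt5. That is a plain ratio of 2.05 (1.40 to 3.09), and under 2-fold on the log2(RPKM + 1) scale. In atprmt5 against wild type 0 of the 48 were higher and DREB2A was the 1 that was lower, where 1.83% and 3.36% of all loci were. The 9 HSP70 relatives outside the module had a median of 0.36 in that comparison and the 4 other small HSPs one of -0.14.

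In s215 against atprmt5 8 of the 48 were higher and 7 lower (16.7% and 14.6%), where 12.7% and 22.8% of all loci were. Against wild type 7 were higher and 9 lower (14.6% and 18.8%), where 12.8% and 23.9% of all loci were. These counts are given as a description. The 4 further small HSPs were all lower in both, with AT2G29500 at 18.9 RPKM in m90, 0.332 in s215, 8.75 in atprmt5 and 15.0 in wild type. Of the cochaperone list, Hop3 and AT5G48570 were past 4-fold lower, Hop3 at 0.884 RPKM in s215, against 10.8 in atprmt5 and 22.2 in wild type. Of 9 HSP70 relatives, 3 were higher in s215 than in atprmt5, Hsp70-2 at 61.3 RPKM in s215 against 9.78 in atprmt5, AT3G09440 at 306 in s215 against 90.2 in atprmt5, and HSC70-1 at 1333 in s215 against 584 in atprmt5. The galactinol synthase genes GOLS2 and GOLS3 were at 705 and 11.6 RPKM in s215, against 56.0 and 0.816 in atprmt5 and 79.7 and 0.0886 in wild type, whereas GOLS1 was at 10.6 in s215, 13.3 in atprmt5 and 20.8 in wild type.

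The last 10 members passed 2-fold on the log2(RPKM + 1) scale in 0 of the 5 comparisons. They were HSFA1A, HSFA1B, HSFA1D, HSFA3, HSFA4C, HSFA5, HSFB3, HSP70B, AT5G37670 and GOLS1. The other 30 passed 2-fold on that scale in at least 1. HSFA3 was past 2-fold as a plain ratio, as given above.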

How the data were processed

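Trizol extraction was followed by strand-specific SMART library construction, per the labels' protocols. TopHat2 2.0.11 and the TAIR10 build are named in the submitters' processing notes; which program counted reads, and whether by strand, is not stated in any source used here. The values are RPKM as deposited, in a single table of 24288 loci with 1 column for each of the 4 libraries, matched to samples by name.

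Ratios were computed as log2((RPKM + 1)/(RPKM + 1)) over the 19867 loci with at least 1 RPKM in at least 1 library and called at 2-fold. Members, lists and comparisons were chosen with earlier results of these data known. Genes named are the members, and genes of the other lists past 4-fold, with those a sentence counts singly named after their values were seen.

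Reads were recovered from the RPKM of 1 read and, per gene, a length at which the 4 values were whole hundredths of a read within a tolerance of 0.001, widened in proportion where reads were many (100-base reads). The largest multiple of the smallest such length that did not pass the annotated exonic length was used, or the smallest itself where that was already longer. It was between 61.7% and 118% of that length (median 87.8%) over the 41 members analysed and equalled it for 3, so reads are approximate. Ratio intervals are 95% exact (Clopper-Pearson, conditional on both libraries' reads). Calls and intervals were also run on simulated counts that held counting error only. Such counts hold no variation between plants, so they cannot check differences between single libraries. Gene models, promoters and 100-base stretches came from RefSeq TAIR10.1, read with Python 3.11.15, NumPy 2.4.6, pandas 2.3.3 and SciPy 1.17.1. Of the members kept, 9 overlap another annotated gene, HSP101, HSFB2B, HSFC1 and MBF1C among them, and reads of the neighbour may be in their values. Alternatives were 2 other pseudocounts, 3 filters, another scaling and a call on the plain ratio with its counting interval.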

Additional observations from a re-analysis of the deposited data

How the results depend on the processing

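Most counts of members held under the 7 alternatives, and medians held less often. Of 70 counts of members, 55 stayed within 1.5 times the value reported and 15 moved. Of 35 medians, 22 were classed as the same, 11 as moved and 2 as reversed. All 77 single calls past 2-fold kept their direction wherever they could be computed. Pseudocounts, filters and the plain ratio cannot reverse a direction, and the rescaling factors were too near 1 to do so. Kept directions are therefore no check of the calls. With a pseudocount of 0.1 the counts were 1 higher in atprmt5 than wild type (0 reported), 6 lower in m90 than wild type and 14 lower in s215 than atprmt5. The first was BIP3, at 0.317 RPKM against 0.0817, chosen for mention after its values were seen. With a pseudocount of 5, under which 40 of the 77 single calls were lost, they were 10 higher and 0 lower in m90 than atprmt5, 1 lower in m90 than wild type, 1 lower in atprmt5 than wild type, 2 lower in s215 than atprmt5 and 6 lower in s215 than wild type. At a mean of at least 5 RPKM, which leaves 23 members, they were 6 lower in atprmt5 than wild type, 1 lower in m90 than wild type, 5 lower in s215 than atprmt5 and 6 lower in s215 than wild type. With the plain ratio and its counting interval they were 1 higher in atprmt5 than wild type and 6 lower in m90 than wild type. Rescaling the libraries by their median ratio, with factors between 0.970 and 1.03, lost no single call. The median of s215 against atprmt5, -0.03 as reported, was 0.14 among members averaging 1 RPKM or more and 0.24 among those averaging 5 RPKM or more. Its sign therefore depends on which low genes are kept. The median of atprmt5 against wild type was -0.51 as reported. It was -0.65 with a pseudocount of 0.1, -0.29 with a pseudocount of 5 and -0.66 with the plain ratio. No paired analysis was possible because each genotype has 1 library. No library could be left out of a comparison for the same reason, and intervals do not cover variation between plants. Small HSPs at a few reads, such as ATHSP22.0, are limited by depth.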
